A study of Rattus norvegicus with 6 samples.

Results

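Chemokines are small secreted or membrane-bound proteins that steer the movement of leukocytes. Here the mRNAs of 10 chemokine ligands were followed at 2 ages in rat islets, the clusters of hormone-secreting cells in the pancreas. The ligands were chosen by symbol (Cxcl1, Cxcl9, Cxcl10, Cxcl11, Cxcl12, Cxcl16, Ccl2, Ccl19, Ccl21 and Cx3cl1), and all 10 had a row among the 17055 gene rows of the count files. Islets in the group called P10 came from Sprague-Dawley rats aged 10 days, whose sex the labels do not give, and those in the adult group from males of the same strain aged 3 months. Each group had 3 libraries labelled as biological replicates, numbered 1, 3 and 4 at P10 and 1, 2 and 3 in adults, and the rats of both groups are called control animals in the labels. Sex therefore cannot be told apart from age where the pups included females, and the labels do not say whether a replicate pooled several animals.

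Chemokine ligands are grouped by the arrangement of their first cysteines (CC, CXC and CX3C) and by use. Inflammatory ligands such as CXCL1 and CCL2 are induced within hours by cytokines through the transcription factor NF-kB. CXCL9, CXCL10 and CXCL11 are induced by interferons and call activated T cells through the receptor CXCR3. Homeostatic ligands such as CCL19, CCL21 and CXCL12 are made constantly by stromal cells and place lymphocytes and progenitor cells in tissues. In islets, CXCL10 and CCL2 are known as products of beta cells exposed to cytokines, and they are studied in autoimmune diabetes and in islet transplantation.

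Gene counts per library ran from 3307415 to 6477825. The deepest library of each group listed the fewest genes. P10 replicate 1 had 11182 genes with a count and 74 genes with exactly 1 count, against 12062 and 12369 genes in the other P10 libraries, and adult replicate 3 had 11342 against 11607 and 11638. The insulin genes Ins1 and Ins2 took between 28.3% and 33.6% of gene counts at P10 and between 46.6% and 52.3% in adults. The 7 beta-cell markers with a row summed to 227747 to 297018 CPM at P10 and to 538535 to 671646 CPM in adults. Nearly all of this sum came from the insulin genes, so it mainly repeats their share. In adults Ins1 averaged 303426 and Ins2 277959 CPM, where the sum averaged 586509 CPM. CPM is a gene's counts divided by the library's gene counts and scaled up, here after correction by TMM factors (trimmed mean of M values), so a change is one relative to the bulk of genes. A floor of 3 counts in a library equalled 0.407 to 1.10 CPM, for counting error only. CPM values are not divided by transcript length, so no ligand's level is compared with another's. In bulk islet RNA, fewer cells of a type and less RNA per cell cannot be told apart.

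The ligands moved in opposite directions. Cxcl10, Cxcl11 and Cxcl1 were 4.26-fold to 5.27-fold higher in adult islets, and Cxcl9, Cxcl12, Cx3cl1, Ccl19 and Ccl21 were lower. Ccl2 and Cxcl16 did not pass the test. The test was edgeR's quasi-likelihood test with a Benjamini-Hochberg false discovery rate (FDR) under 0.05 over all 10124 genes tested, in which 12.5% of genes were higher and 13.8% lower in adults, against 3 and 5 of the 10 ligands. The groups did not overlap for the same 3 and 5 ligands, where 20.0% and 22.3% of all tested genes did not overlap in each direction. All 10 ligands passed the filter on low counts, but none of the 5 called lower could have passed it on adult counts alone. Cxcl9, Ccl19 and Ccl21 had no adult library over the filter's minimum, and Cxcl12 and Cx3cl1 had 2. These 5 were thus tested because they were high enough at P10. Their share is read against neither the 13.8% called lower nor the 22.3% without overlap. The median log2 fold change was -0.99 over the 10 ligands and -0.33 over the 8 with an adult count, against -0.03 over all tested genes. Over the 5 ligands that could pass the filter on adult counts alone it was 2.09. The sign of the median thus depends on which ligands are included, and no median is read against the -0.03.

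The calls were not equally firm. The 3 rises held in each of the 13 alternative analyses, whereas the number of ligands called lower ran from 1 to 7. Without any 1 library it ran from 1 to 4, and without both P10 replicate 1 and adult replicate 3 it was 2. With library totals in place of TMM factors, the whole set of tested genes had a median log2 fold change of -0.52 and 8.67% of all calls were rises, against 47.6% with TMM factors. The 3 rises were called under that scaling too, and Ccl2 and Cxcl16 were then also called lower.

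**Figure D1:**
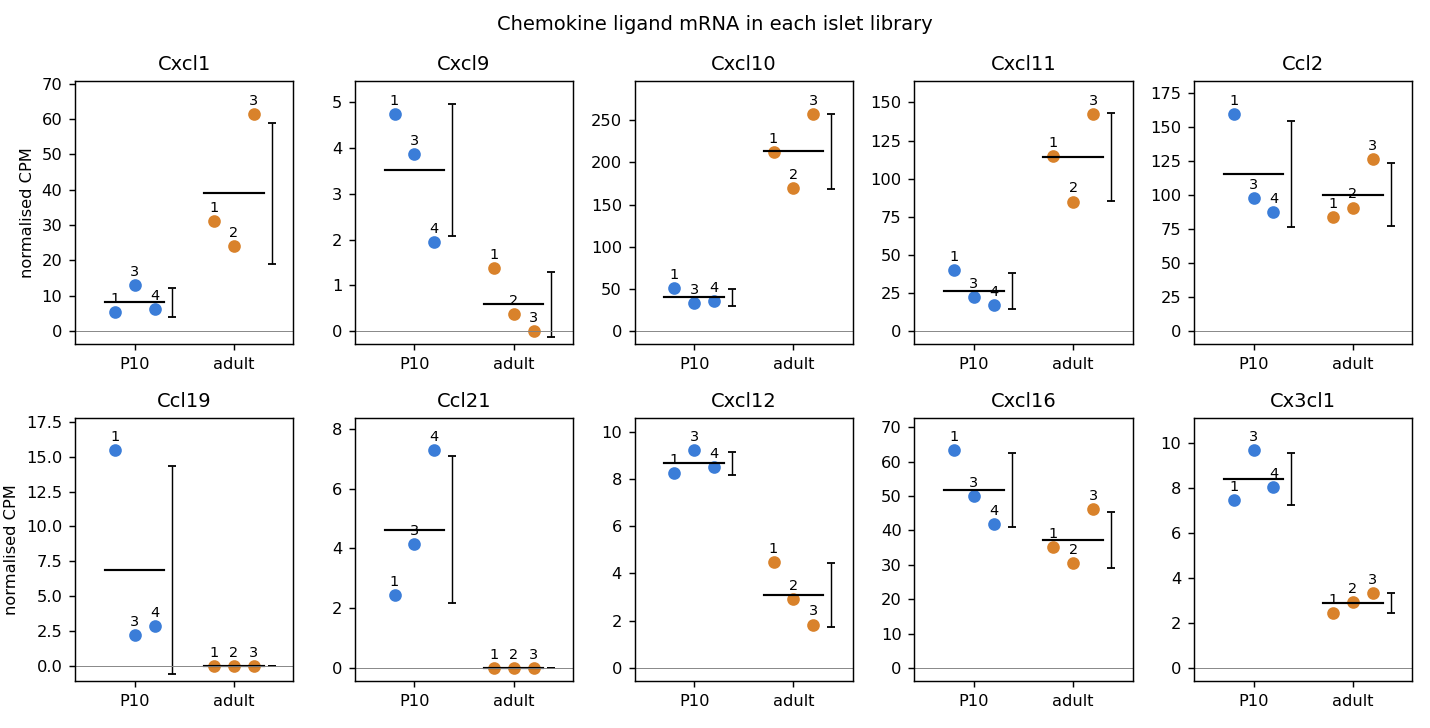
Normalised CPM (vertical axis, linear) of each ligand in the 3 P10 (blue) and 3 adult (orange) libraries; numbers beside points are replicate numbers, horizontal lines group means and bars ± SD (n = 3). Cxcl1, Cxcl10 and Cxcl11 lie higher in every adult library than in any P10 library, and Ccl19 and Ccl21 lie at 0 in all 3 adult libraries.

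**Figure D2:**
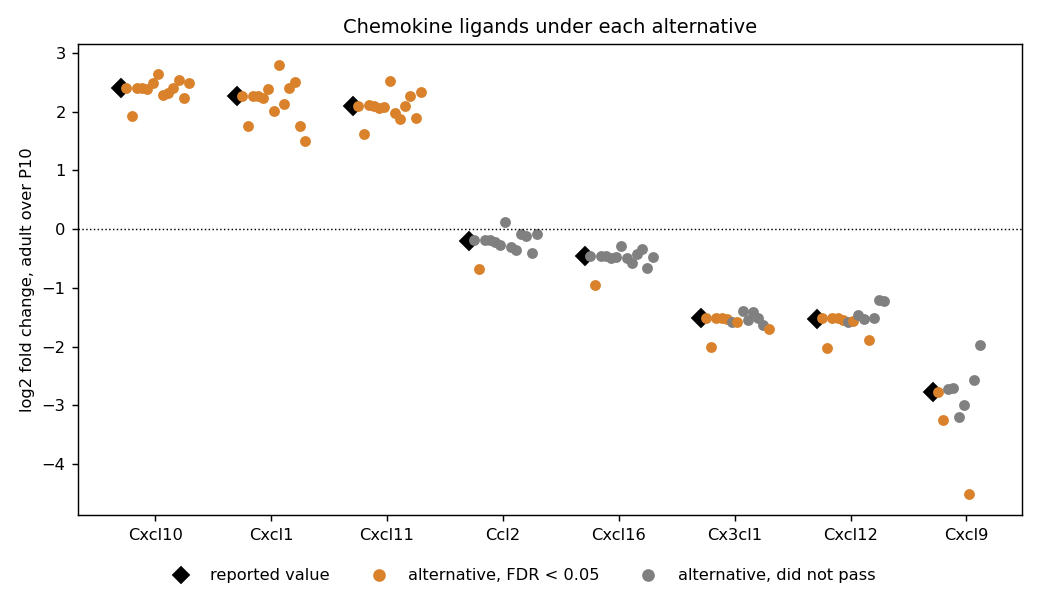
Log2 fold change of adult over P10 (vertical axis) for the 8 ligands counted at both ages; black diamonds are the reported values, circles the alternative analyses, orange where the FDR was under 0.05 and grey where it was not. Cxcl10, Cxcl1 and Cxcl11 lie between 1.50 and 2.79 and are orange throughout, while Cx3cl1, Cxcl12 and Cxcl9 hold both orange and grey circles.

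The stretches of DNA just before the start of these genes show the sequence context of the ligands that moved together. They come from a RefSeq promoter table of the GRCr8 assembly, whereas the submitters' processing notes name the rn5 build, and 9 of the 10 ligands had an entry, Ccl2 being the exception. The 250 bases before each start were searched on both strands, with overlaps allowed, for an NF-kB pattern (GGGANNNNCC), an interferon-stimulated response element or ISRE pattern (GAAANNGAAA) and a gamma-activated sequence or GAS pattern (TTCNNNGAA), each 9 or 10 bases long, where N is any base. The 5 promoters that hold an NF-kB pattern are shown 5′ to 3′, with the bases of any match in capitals.
Cxcl1 promoter, GRCr8 chr14:17479322-17479571, minus strand: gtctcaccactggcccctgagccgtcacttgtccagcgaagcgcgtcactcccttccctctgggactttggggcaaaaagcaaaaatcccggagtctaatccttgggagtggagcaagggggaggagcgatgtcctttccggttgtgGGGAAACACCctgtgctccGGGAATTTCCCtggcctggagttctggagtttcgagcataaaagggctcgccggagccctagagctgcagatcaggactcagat
Cxcl10 promoter, GRCr8 chr14:15988816-15989065, plus strand: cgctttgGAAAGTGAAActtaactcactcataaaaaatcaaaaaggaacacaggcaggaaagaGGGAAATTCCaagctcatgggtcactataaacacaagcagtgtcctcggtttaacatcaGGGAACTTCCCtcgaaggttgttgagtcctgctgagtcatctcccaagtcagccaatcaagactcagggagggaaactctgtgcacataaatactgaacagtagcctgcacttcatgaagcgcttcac
Cxcl11 promoter, GRCr8 chr14:15973478-15973727, plus strand: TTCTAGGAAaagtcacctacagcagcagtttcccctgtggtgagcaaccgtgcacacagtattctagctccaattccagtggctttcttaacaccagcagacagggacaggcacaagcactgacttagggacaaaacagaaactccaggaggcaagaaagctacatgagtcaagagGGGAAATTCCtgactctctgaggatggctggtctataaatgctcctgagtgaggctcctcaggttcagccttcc
Cxcl9 promoter, GRCr8 chr14:16006916-16007165, plus strand: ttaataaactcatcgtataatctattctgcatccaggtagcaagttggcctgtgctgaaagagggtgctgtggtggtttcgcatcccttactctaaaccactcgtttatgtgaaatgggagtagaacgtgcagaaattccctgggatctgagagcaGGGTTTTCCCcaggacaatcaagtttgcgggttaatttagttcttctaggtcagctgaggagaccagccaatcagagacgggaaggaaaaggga
Ccl19 promoter, GRCr8 chr5:61761165-61761414, minus strand: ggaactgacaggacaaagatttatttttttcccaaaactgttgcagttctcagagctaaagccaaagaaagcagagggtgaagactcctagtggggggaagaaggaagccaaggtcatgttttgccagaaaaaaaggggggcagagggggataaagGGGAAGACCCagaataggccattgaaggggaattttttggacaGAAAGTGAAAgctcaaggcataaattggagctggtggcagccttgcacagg

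The NF-kB pattern lay before 5 of the 9 ligands, all 3 that rose and also Cxcl9 and Ccl19, which were lower in adults, and it lay in 16.4% of 33469 RefSeq promoters of the same length. Cxcl1 and Cxcl10 each hold 2 separate NF-kB runs, and in 1 run of each gene matches on both strands overlap. The ISRE pattern lay before Cxcl10 and Ccl19, against 3.41% of all promoters. The GAS pattern lay before Cxcl11, against 7.67% of all promoters. None of the 3 patterns was found in this window of Cxcl12, Cxcl16, Ccl21 or Cx3cl1. A match is a run of letters, not a measured binding site, and no binding was measured here.

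The 3 ligands of CXCR3 did not move together. Cxcl10 stood at 51.7, 33.7 and 35.4 CPM in P10 replicates 1, 3 and 4, and at 212, 169 and 258 CPM in adult replicates 1, 2 and 3. Every adult library was above every P10 library. Its mean was 40.3 ± 9.90 CPM at P10 and 213 ± 44.2 CPM in adults (SD, n = 3), a 5.27-fold rise with a log2 fold change of 2.40 ± 0.19 (SE) and an edgeR FDR of 2.68e-07. Cxcl11, which binds the same receptor with high affinity, stood at 39.9, 22.6 and 17.0 CPM at P10 and at 115, 85.0 and 143 CPM in adults. The groups again did not overlap, although P10 replicate 1 was the highest of its group for both genes. Cxcl11 rose 4.26-fold, with a log2 fold change of 2.09 ± 0.26 (SE) and an edgeR FDR of 2.85e-05.

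Cxcl9, the ligand of this trio known to depend most on interferon gamma, was low at both ages and lower in adults. It had 35, 26 and 8 counts in the P10 libraries and 4, 1 and 0 counts in the adult libraries, or 1.94 to 4.75 CPM against 0 to 1.38 CPM. The ratio of normalised counts, P10 over adult, was 8.38 with an exact 95% counting interval of 3.42 to 26.6. The edgeR FDR was 0.0497. Cxcl9 no longer passed when P10 replicate 4, adult replicate 2 or adult replicate 3 was dropped (FDR 0.0896 to 0.203), with DESeq2 (0.0755) or with no filter (0.0825), and its FDRs under the alternatives spanned 0.0155 to 0.231. Dropping P10 replicate 1 or 3 put it under the filter. Dropping adult replicate 1 left 1 adult count and a ratio of 31.0 (5.37 to 1240), and dropping adult replicate 3 gave 4.26 (1.74 to 13.5).

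Because these genes are counted in the same libraries, their ratio needs no scaling between libraries. There were 10.9, 8.73 and 18.2 counts of Cxcl10 for each count of Cxcl9 in the P10 libraries, and 153 and 462 in adult replicates 1 and 2, while adult replicate 3 had 1404 counts of Cxcl10 and none of Cxcl9. The ratio of Cxcl11 to Cxcl10 counts, in contrast, overlapped between the ages, from 0.479 to 0.772 at P10 and from 0.502 to 0.553 in adults. On GRCr8 the 3 genes are neighbours on chromosome 14, in the order Cxcl11, Cxcl10, Cxcl9. Cxcl10 and Cxcl11 lie inside the span of Art3, and the libraries do not keep strand. Art3 itself was at 0.728 to 1.36 CPM at P10 and 3.11 to 4.03 CPM in adults, and did not pass (edgeR FDR 0.131).

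Outside the lists, the genes whose profile over the 6 libraries was most like that of Cxcl10 were Isg15, Gdf15 and Usp18. Their root mean square differences from Cxcl10 were 0.11, 0.13 and 0.22 on the centred log2 CPM scale. Isg15, a ubiquitin-like protein induced by interferons, rose 5.20-fold, and Usp18, the enzyme that removes it, rose 6.98-fold. For Cxcl11 the closest profiles were those of Isg15 (0.21), Pglyrp1 (0.22) and RGD1566380 (0.24), and for Cxcl1 those of Sptb (0.22), C9 (0.29) and Ache (0.39). For ligands with a large difference between the ages, closeness mostly reflects a difference of the same size. The closest profiles had differences of 0.0877 for Cxcl12 (Cttnbp2nl), 0.0566 for Cxcl16 (Triobp), 0.0797 for Ccl2 (Chchd4) and 0.106 for Cx3cl1 (Mycn).

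Of the inflammatory ligands Cxcl1 rose and Ccl2 did not pass. Cxcl1, which draws neutrophils through CXCR2, stood at 5.29, 12.9 and 6.31 CPM at P10 and at 31.1, 24.2 and 61.5 CPM in adults. The groups did not overlap, and adult replicate 3 was the highest by a wide margin. In that library acinar markers summed to 3455 CPM, against 850 and 1018 CPM in the other adult libraries and 2462 to 3491 CPM at P10, and their part in the Cxcl1 and Cxcl2 results was not tested. The rise was 4.79-fold, from 8.18 ± 4.15 to 38.9 ± 19.8 CPM (SD, n = 3), with a log2 fold change of 2.26 ± 0.38 (SE) and an edgeR FDR of 0.000385. Without both P10 replicate 1 and adult replicate 3 the log2 fold change was 1.50 (FDR 0.00249, the alternatives spanning 2.38e-08 to 0.00448). Ccl2, which draws monocytes through CCR2, stood at 160, 98.2 and 87.9 CPM at P10 and at 83.7, 90.9 and 127 CPM in adults. The groups overlapped, with the highest values in P10 replicate 1 and adult replicate 3. Its log2 fold change was -0.20 ± 0.21 (SE; FDR 0.543), was 0.13 without P10 replicate 1 (FDR 0.640), and was -0.68 with library totals (FDR 0.0176), the alternatives reaching an FDR of 0.867.

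Both ligands of the lymphocyte receptor CCR7 were found at P10 and in no adult library. Ccl19 had 114, 15 and 12 counts at P10, or 15.5, 2.23 and 2.91 CPM, and Ccl21 had 18, 28 and 30 counts, or 2.44, 4.16 and 7.28 CPM. The library with the most Ccl19, P10 replicate 1, had the least Ccl21. Set against 3 counts over the adult group, Ccl19 was at least 28.5-fold lower in adults (edgeR FDR 0.00188) and Ccl21 at least 15.4-fold lower (edgeR FDR 0.00179), in tests that both genes entered through their P10 counts alone. Dropping P10 replicate 1 left 27 counts of Ccl19 at P10, under the filter, and a bound of at least 9.18-fold, and dropping adult replicate 3 left a bound of at least 14.5-fold. For Ccl21, dropping adult replicate 3 left a bound of at least 7.81-fold, and dropping P10 replicate 3 put it under the filter. With the replicate number as a block, Ccl21 did not pass (edgeR FDR 0.0729), and it kept its call in 10 of the 11 alternatives in which it was tested. In the mouse Ccl21 has several near-identical copies, and whether reads of the rat gene were lost to a copy was not tested. Their receptor gene Ccr7 averaged 2.53 ± 1.63 CPM at P10 and 5.75 ± 2.99 CPM in adults (SD, n = 3), a difference that did not pass (edgeR FDR 0.211).

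Lymphocyte markers were sparse, and none passed the test. The 6 B-cell markers with a row summed to 16.3 CPM in P10 replicate 1, to 1.78 and 5.34 CPM in the other P10 libraries and to between 0.184 and 3.11 CPM in adults, so the ages overlapped (exact two-sided permutation p = 0.2). Cd79b, part of the B-cell receptor, had 68 counts in P10 replicate 1, between 5 and 7 in the other P10 libraries and 1 in all adults together, and Ms4a1 had 12, 4 and 4 counts at P10 and 0 in adults. Blk, another B-cell marker, averaged 1.10 CPM at P10 and 1.23 CPM in adults, Cr2 had 1 count at P10, and Pax5 had 1 at P10 and 2 in adults. The 12 T-cell or NK-cell markers summed to 12.8 to 28.6 CPM at P10, again highest in P10 replicate 1, and to 5.50 to 7.95 CPM in adults, where Cd3e, Cd8b, Nkg7 and Gzma were at 0. Cd4 alone averaged 3.31 CPM in adults, where this sum averaged 6.32 CPM. No B-cell marker and 2 T-cell or NK-cell markers had enough counts to be tested, and neither of these 2 passed. Of the 4 lymphatic endothelium markers 2 were lower and none higher, beside 13.8% lower and 12.5% higher among all tested genes. The sum of the 4 markers was 64.8 to 73.0 CPM at P10 against 31.5 to 42.9 CPM in adults. Most of the adult sum, which averaged 36.8 CPM, came from Prox1 at 27.5 CPM. Lyve1, a hyaluronan receptor of lymphatic vessels, had 56 to 225 counts in the P10 libraries and 0, 6 and 4 in the adult libraries. Lyve1 thus passed the filter through its P10 counts. Pdpn was lower too (edgeR FDR 0.0236), while Flt4 did not pass (edgeR FDR 0.0934). Prox1 did not pass either, at 26.0 ± 3.32 CPM at P10 and 27.5 ± 4.56 CPM in adults (SD, n = 3, edgeR FDR 0.826). The part of lymphoid or lymphatic tissue in the Ccl19 and Ccl21 results was not tested.

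**Figure D3:**
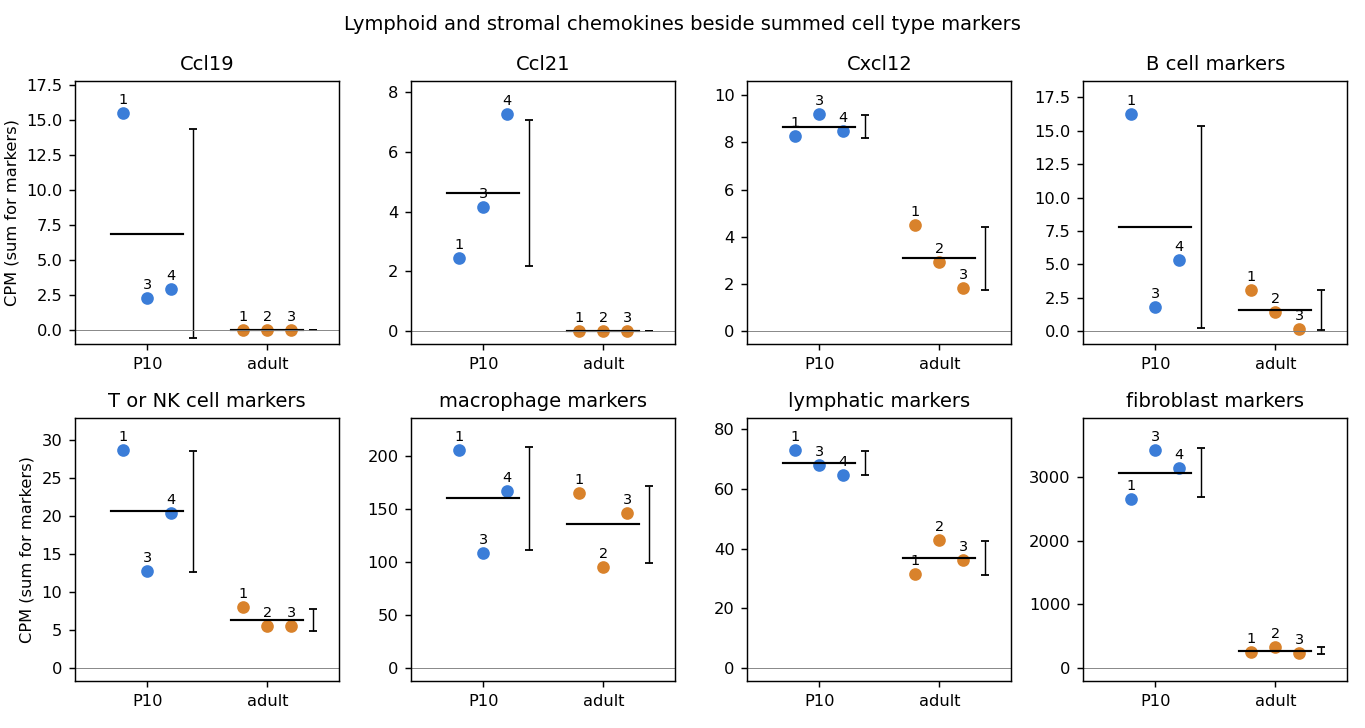
Normalised CPM (vertical axis, linear; summed over the listed genes for markers) in the 3 P10 (blue) and 3 adult (orange) libraries; numbers beside points are replicate numbers, lines group means and bars ± SD (n = 3). P10 replicate 1 has the highest Ccl19 (15.5 CPM) and the highest B-cell marker sum (16.3 CPM), but the lowest Ccl21 (2.44 CPM).

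Cxcl12, the stromal ligand of CXCR4 that retains stem cells and guides vessels, stood at 8.27, 9.21 and 8.50 CPM at P10 and at 4.50, 2.93 and 1.84 CPM in adults. The groups did not overlap, and the P10 libraries were close to each other. It was 2.88-fold lower in adults, with a log2 fold change of -1.52 ± 0.51 (SE) and an edgeR FDR of 0.0369, resting on 158 counts at P10 and 31 in adults. Dropping P10 replicate 3, P10 replicate 4, adult replicate 2 or adult replicate 3 ended the call (FDR 0.0883 to 0.116), and its FDRs under the alternatives spanned 0.00525 to 0.222. Fibroblast markers summed to 2654 to 3423 CPM at P10 and to 230 to 327 CPM in adults, with Col1a2 listed at 0 in every library. Of the 10 tested 9 were lower and none higher, beside 13.8% lower and 12.5% higher among all tested genes. The fibroblast sum was 11.3 times as high at P10, but most of it came from 2 collagen genes. Col1a1 and Col3a1 averaged 1737 and 908 CPM at P10, where the sum averaged 3073 CPM. The median log2 fold change of the 10 tested fibroblast markers was -2.77, and Thy1 was the 1 that did not pass. Of 10 tested pericyte or smooth muscle markers 9 were lower too, their sum being 4.03 times as high. Some of these markers, such as Lum and Kcnj8, passed the filter through their P10 counts. The numbers called are therefore not read against those shares. Duct markers summed to 856 to 915 CPM at P10 and to 30.4 to 43.0 CPM in adults. An exact permutation test, two-sided, gave p = 0.1 for each of these sums, which is the lowest value possible with 3 libraries a group. Their part in the Cxcl12 result was not tested.

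The receptors of Cxcl12 differed in whether they passed. Cxcr7, the older symbol of Ackr3, a scavenger receptor that removes CXCL12 without G-protein signalling, stood at 20.5, 19.9 and 19.4 CPM at P10 and at 6.92, 6.23 and 7.71 CPM in adults. It was 2.84-fold lower in adults (log2 fold change -1.50 ± 0.30 (SE), edgeR FDR 0.00166) with no overlap. Cxcr4, the signalling receptor, averaged 59.0 ± 7.76 CPM at P10 and 50.4 ± 11.6 CPM in adults (SD, n = 3). It missed the threshold (edgeR FDR 0.447) except with library totals (FDR 0.00801, the other alternatives reaching 0.919). The difference between the changes of these receptors was not tested.

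Cx3cl1 and Cxcl16 are made as membrane proteins on a mucin stalk and are released by the proteases ADAM10 and ADAM17. Cx3cl1, whose receptor CX3CR1 is carried by macrophages and NK cells, stood at 7.46, 9.66 and 8.01 CPM at P10 and at 2.42, 2.93 and 3.30 CPM in adults. The groups did not overlap. It was 2.86-fold lower in adults, with a log2 fold change of -1.51 ± 0.49 (SE) and an edgeR FDR of 0.0312 from 153 and 33 counts, and dropping P10 replicate 3, P10 replicate 4 or any 1 adult library ended the call (FDR 0.0506 to 0.122, all alternatives spanning 0.00431 to 0.213). Cxcl16, also a scavenger receptor for oxidised lipid, stood at 63.3, 50.1 and 42.0 CPM at P10 and at 35.3, 30.4 and 46.3 CPM in adults. The groups overlapped through adult replicate 3, and its log2 fold change of -0.46 ± 0.21 (SE) did not pass (edgeR FDR 0.115), except with library totals (-0.95, FDR 0.00285, the other alternatives reaching 0.363). Endothelial markers, whose cells can make Cx3cl1, were lower in 4 of 12 cases and higher in none. Among all tested genes 13.8% were lower and 12.5% higher. The endothelial markers summed to 358 to 480 CPM at P10 and to 216 to 287 CPM in adults. Their part in the Cx3cl1 result was not tested.

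Of the genes that cut, anchor or trim chemokines, 15 had a row and 14 were tested, of which 7 were lower in adults, 1 was higher and 6 did not pass, beside 13.8% lower and 12.5% higher among all tested genes. Their median log2 fold change was -0.44. The lower genes included Dpp4, the peptidase that clips CXCL10 and CXCL12, which went from 9.50 ± 1.88 to 1.65 ± 1.28 CPM (SD, n = 3, 5.84-fold, edgeR FDR 0.00480). Dpp4 had 9, 2 and 6 adult counts and passed the filter through its P10 counts. Adam17, named for its role after its value was seen, was 2.03-fold lower (edgeR FDR 0.00740). Adam10 averaged 33.1 ± 4.52 CPM at P10 and 34.4 ± 3.97 CPM in adults (SD, n = 3; edgeR FDR 0.870), and the heparan sulphate synthesis genes Ext2 and Ndst1 did not pass either (edgeR FDR 0.338 and 0.900). The matrix proteases Mmp2 and Mmp14, which can also cut chemokines, were 6.70-fold and 5.79-fold lower, and the heparan sulphate carriers Gpc1 and Sdc1, on which chemokines are held at the cell surface, 3.29-fold and 3.76-fold lower. Sdc4, another such carrier, was the 1 that rose, 2.19-fold, from 106 ± 15.8 to 231 ± 22.5 CPM (SD, n = 3). Mmp2 and Mmp14 are also made by fibroblasts, whose markers summed to 11.3 times as much at P10, mostly through Col1a1 and Col3a1. The part of fibroblasts in the Mmp2 and Mmp14 results was not tested.

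Most chemokine receptors with a row were close to undetected. Ccr2, the receptor of Ccl2, had no row and so was not measured, nor were Ccr8, Ackr1 and Ackr4. Of 19 receptor genes with a row 11 had a count in any library and 4 could be tested, of which Cxcr7 was lower and Cxcr4, Ccr7 and Ccrl2 (edgeR FDR 0.987) did not pass. Cxcr3, the receptor of Cxcl9, Cxcl10 and Cxcl11, had no count in any library, which allows up to 3 counts or 1.10 CPM in the shallowest library. Cxcr6, the receptor of Cxcl16, had none either. A row at 0 throughout can also be a gap in counting: the fibroblast gene Col1a2 is listed at 0 in every library, while Col1a1 averaged 1737 CPM at P10. Cxcr2 had 6 counts in P10 replicate 3 and 0 elsewhere, and Cx3cr1 had 0, 9 and 8 counts at P10 and 0 in adults.

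**Figure D4:**
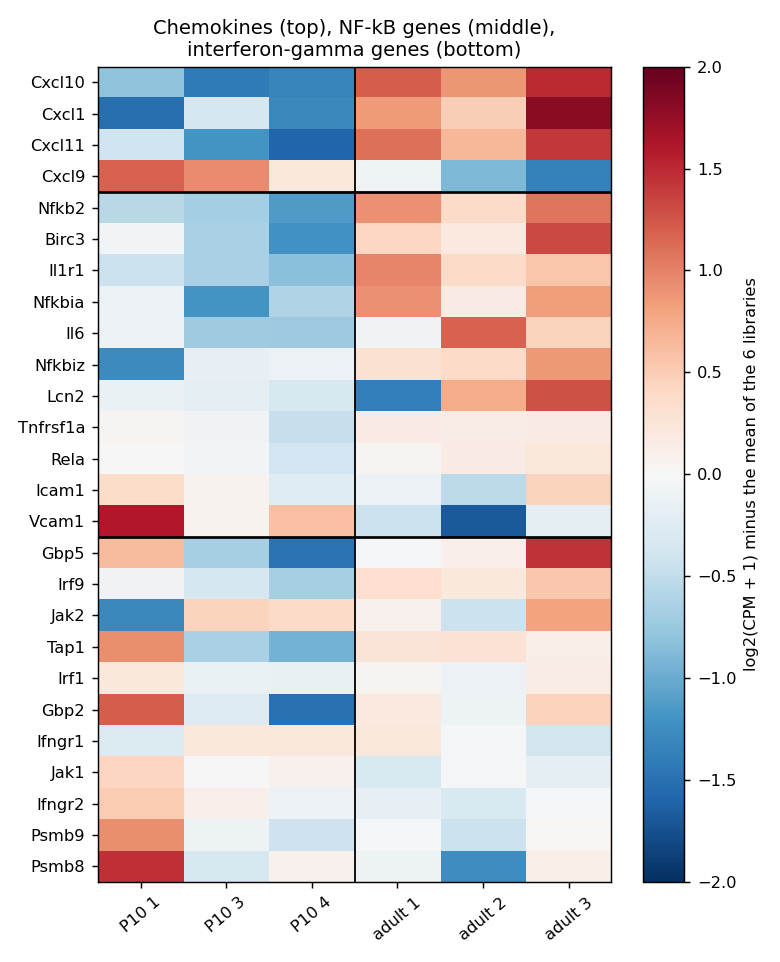
log2(CPM + 1) of each gene minus its mean over the 6 libraries (colour scale, limited to ±2), for 4 ligands (top), tested NF-kB genes (middle) and 11 of the 12 tested interferon-gamma genes (bottom), with libraries in columns. Cxcl1, Cxcl10 and Cxcl11 are higher in all 3 adult libraries, as are Nfkb2 and Il1r1, whereas Psmb8, Gbp2 and Tap1 are highest in P10 replicate 1.

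The genes around NF-kB were higher in adults or did not pass. Of 14 with a row 11 were tested, of which 6 were higher, none was lower and 5 did not pass, while library totals gave 4 higher and 1 lower. Among all tested genes 12.5% were higher and 13.8% lower, and the median log2 fold change of the 11 was 1.07. Nfkb2, an NF-kB subunit that is itself an NF-kB target, stood at 36.8, 33.7 and 24.3 CPM at P10 and at 103, 71.1 and 115 CPM in adults. It rose 3.05-fold without overlap (edgeR FDR 3.41e-05). Il1r1, the interleukin 1 receptor, rose 2.45-fold (FDR 4.18e-05), Nfkbia, the inhibitor that NF-kB induces to end its own activity, rose 2.40-fold (FDR 0.00109), and Birc3, an apoptosis inhibitor, rose 2.53-fold (FDR 0.00551). Il6 rose 2.25-fold (FDR 0.0371) and Nfkbiz 2.10-fold (FDR 0.0470), but of the 6 analyses without 1 library Il6 missed the threshold in 4 and Nfkbiz in all 6. Without adult replicate 3, 3 NF-kB genes were higher, and Birc3 did not pass (FDR 0.0552). Rela, Tnfrsf1a and Lcn2 did not pass, at edgeR FDRs of 0.189, 0.152 and 0.138, and Rela and Tnfrsf1a turned sign with library totals (-0.21 and -0.20). Icam1 and Vcam1, named after their values were seen, did not pass either and had negative log2 fold changes. These were -0.08 for Icam1 (edgeR FDR 0.854) and -2.08 for Vcam1 (edgeR FDR 0.0770). Vcam1 did not overlap between the ages and had 4, 0 and 10 adult counts. The part of NF-kB activity in the rise of Cxcl1, Cxcl10 and Cxcl11 was not tested.

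The interferon-gamma genes mostly did not pass. Of 16 genes 12 were tested, of which 2 rose, none fell and 10 did not pass, while library totals gave none higher and 4 lower. With 12.5% of all tested genes higher, 2 of 12 is near the background, and the median log2 fold change of the 12 was 0.01. Ifng itself was listed at 0 in every library. Irf9, a subunit of the interferon-stimulated transcription factor complex, went from 26.4 ± 5.57 to 43.5 ± 5.15 CPM (SD, n = 3; 1.64-fold, edgeR FDR 0.0185). With library totals Irf9 did not pass (FDR 0.442, the highest of the alternatives, whose lowest was 0.00608). Without P10 replicate 1 the list had 4 genes higher, and without P10 replicate 3, P10 replicate 4 or adult replicate 3 it had none. Jak1, a kinase of the interferon receptors, and Irf1, a transcription factor that interferon gamma induces, did not pass (edgeR FDR 0.122 and 0.855). Psmb8, an immunoproteasome subunit, had 1043 counts in P10 replicate 1 against 272 and 221 in the other P10 libraries, the library that was also highest in Ccl19 and in both lymphocyte marker sums, and it did not pass (78.5 ± 54.9 and 41.2 ± 18.0 CPM, SD, n = 3; edgeR FDR 0.0942).

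Other chemokines also went both ways. Of 24 with a row 21 had a count and 12 could be tested. Of these 4 rose, 3 fell and 5 did not pass, beside 12.5% higher and 13.8% lower among all tested genes. Ccl20 passed the filter only through its adult counts and Cxcl14 only through its P10 counts. The numbers called are therefore not read against those shares. Ccl7, a monocyte ligand and the neighbour of Ccl2 on GRCr8, stood at 9.36, 9.66 and 8.01 CPM at P10 and at 29.0, 19.8 and 29.9 CPM in adults. It rose 2.91-fold without overlap (edgeR FDR 0.000723), while Ccl2 did not pass, and the difference between both changes was not tested. Ccl20, the ligand of CCR6, had 3 counts at P10 and 48 in adults, a ratio of 26.3 with an exact 95% counting interval of 8.49 to 132 (edgeR FDR 0.00306). Cxcl2, the neighbour and close relative of Cxcl1, rose 4.26-fold (FDR 0.0145), a rise carried by adult replicate 3 at 35.3 CPM against 5.88 and 8.06 CPM in the other adult libraries. Without that library its log2 fold change was 0.82 (FDR 0.371, the alternatives spanning 0.000413 to 0.419), and 1 of these chemokines was then called higher. Cxcl17, named to complete the count, overlapped between the ages and passed at an FDR of 0.0436. Ccl5, a T-cell ligand, had a log2 fold change of 2.25 and did not pass (edgeR FDR 0.0613), nor did the neutrophil ligands Cxcl3 (0.225) and Cxcl5 (0.741), the row matched to Cxcl6.

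The falling chemokines outside the 10 were Ccl9, Ccl24 and Cxcl14. Ccl9, a macrophage chemokine, went from 16.8 ± 7.66 to 5.38 ± 1.18 CPM (SD, n = 3; 3.20-fold, edgeR FDR 0.00605), except that it did not pass without both P10 replicate 1 and adult replicate 3 (FDR 0.0696, the highest of the alternatives, whose lowest was 0.000369). Ccl24, an eosinophil ligand, fell 2.22-fold (edgeR FDR 0.0317) and Cxcl14, tested through its P10 counts alone, fell 6.44-fold (edgeR FDR 0.0138). Neither passed without P10 replicate 3 or without adult replicate 2, and 1 of the 24 was then called lower. Macrophage markers overlapped between the ages in sum, with 108 to 205 CPM at P10 and 94.9 to 165 CPM in adults (exact two-sided permutation p = 0.4). Of 12 tested 2 were lower, Lyz2 and C1qb (edgeR FDR 0.00958 and 0.0490), and none was higher. That is near the background, as 13.8% of all tested genes were lower. The part of macrophages in the Ccl9 result was not tested. Neutrophil markers were near the floor, at up to 2.39 CPM in sum, and S100a8 and Mpo were at 0 in adults.

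**Figure D5:**
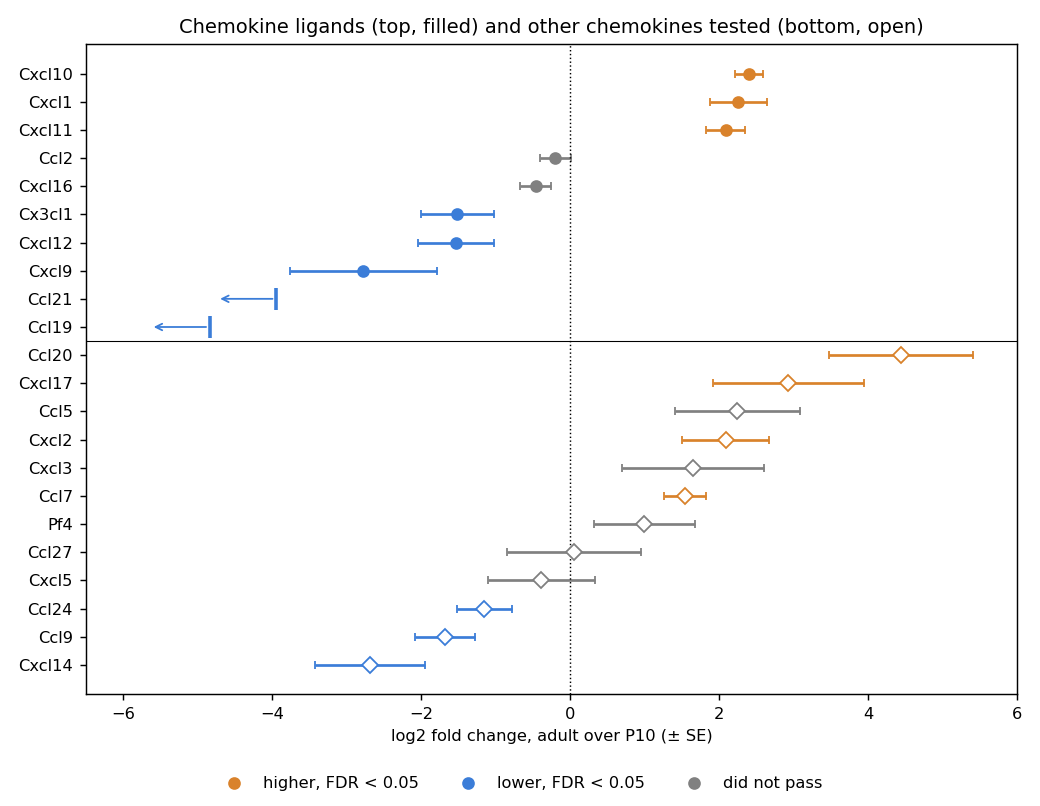
Fitted log2 fold change of adult over P10 (horizontal axis; bars ± SE) for the 10 ligands (top, filled) and the 12 other chemokines tested (bottom, open), coloured by the edgeR call. For Ccl19 and Ccl21 the vertical mark is the bound set by 3 counts over the adult group and the arrow points to lower values. Cxcl10, Cxcl1 and Cxcl11 have log2 fold changes of 2.40, 2.26 and 2.09.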

How the data were processed

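Per the labels' protocols, mRNA with poly(A) tails was taken from islet RNA, and the single-end libraries made from it carry no strand information. Bowtie2, TopHat2 2.0.10, TopHat, HTSeq, DESeq and edgeR and the rn5 build are named in the submitters' processing notes, without roles. The authors deposited raw read counts per gene symbol, 1 file per library, and these were used. A table of the whole series, whose 6 library columns repeat these counts, was not used. Counter rows stayed out of library sizes and tests. Of all reads in the gene and counter rows of a file, alignments that were not unique made up 23.4% to 27.7% at P10. In adults they made up 15.1% to 17.8%. Ambiguous reads made up 0.391% to 0.474% at P10 and 0.319% to 0.374% in adults. Reads shared by similar chemokine genes are thus missing, and the share of reads lost in these ways was larger in every P10 library than in any adult library. Its part in the ligand results was not tested.

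Genes were kept by filterByExpr (minimum count 10, total 15), scaled by TMM factors and tested with edgeR 4.0.16 in R 4.3.3, with age group as the only term and an FDR threshold of 0.05. The SE of a log2 fold change is its size over the root of the F statistic. Genes with no adult count are set against 3 counts over the group, and ratios carry exact 95% counting intervals, both for counting error only. P-values measure the spread between the labelled replicates. Alternatives replaced the TMM factors by relative log expression factors or by library totals, edgeR by DESeq2 1.42.0, or the filter by none or by 5 CPM in 3 libraries, added the replicate number as a block, or dropped each library in turn. Leaving out P10 replicate 1 and adult replicate 3 together, the libraries with the fewest genes detected, was chosen after seeing the data. On counts simulated for adult against P10 over 9954 genes, the test called 54.5% of 99 genes with a 2-fold change, 83.0% of 100 with a 4-fold change and 8 of 9755 with none.

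The ligands, lists and rules were chosen with earlier results of these data known. Named genes are, per pathway list, up to 6 called genes by p and up to 3 others by level, and for ligands of at least 5 CPM the 3 closest profiles (prior count 2). Results of 2 listed genes are not reported here. Symbols were matched through RefSeq synonyms where needed.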

Additional observations from a re-analysis of the deposited data

How the results depend on the processing

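Cxcl1, Cxcl10 and Cxcl11 kept their direction and their call in all 13 alternatives, with log2 fold changes of 1.50 to 2.79, 1.92 to 2.64 and 1.62 to 2.53, and Ccl19 kept its call in the 10 in which it was tested. Cxcl9, Cxcl12 and Cx3cl1 rest on few counts. Cxcl12 and Cx3cl1 each missed the threshold in 6 of the 13 alternatives, and Cxcl9 in 6 of the 9 in which it was tested. A floor of 3 counts was 0.407 to 1.10 CPM, which limits what can be said of genes with no count. The cause of the changes listed here was not tested. With library totals, 343 genes were called higher and 3612 lower, receptors had 2 lower, interferon-gamma genes 0 higher and 4 lower, and NF-kB genes 1 lower. The log2 fold changes were then -0.95 for Cxcl16, -0.68 for Ccl2, -0.44 for Ccrl2, -0.43 for Irf1, -0.20 for Tnfrsf1a, -0.21 for Rela and -0.44 for Adam10. The replicate numbers did not pair the libraries: by the sample titles, which were followed although the deposited files number the P10 libraries 1 to 3, only 1 and 3 are shared, and these had correlations of deviations of -0.0239 and -0.00489. A block on the replicate number rests the age effect on replicates 1 and 3 alone. P10 replicate 4 and adult replicate 2 share their number with no other library. In this fit 679 genes were called higher and 729 lower. It called 1 ligand lower, 2 other chemokines higher and 1 lower, 0 interferon-gamma genes higher and 4 trimming or anchoring genes lower. The highest FDRs of Cxcl9, Cxcl12 and Cx3cl1 (0.231, 0.222 and 0.213) came from this fit. Under that block the log2 fold changes were -3.20 for Cxcl9, -1.58 for Cxcl12, -7.12 for Ccl21, -1.57 for Cx3cl1, -0.0593 for Adam10 and 0.0740 for Ndst1. DESeq2 gave -2.73 for Cxcl9, and no filter gave -2.70 with 1 interferon-gamma gene lower. The stricter filter, under which Cxcl9, Ccl19 and Ccl21 were not tested, left 2 ligands lower and 2 other chemokines higher. Without both libraries with the fewest detected genes, 2 ligands were lower, 1 other chemokine was higher and 1 lower, and the log2 fold change was -1.23 for Cxcl12 and 0.0544 for Ext2. Leaving out 1 library at a time, the counts ran from 1 to 4 for ligands lower, 1 to 4 and 1 to 3 for other chemokines higher and lower, 0 to 1 for receptors higher, 0 to 4 and 0 to 1 for interferon-gamma genes higher and lower, and 3 to 6 for NF-kB genes higher. Log2 fold changes then ran from -4.50 to -1.97 for Cxcl9, -1.89 to -1.21 for Cxcl12, -1.63 to -1.39 for Cx3cl1, -0.40 to 0.13 for Ccl2, -1.68 to 0.0583 for Cxcl5, -0.24 to 0.29 for Ccrl2, -0.00763 to 0.20 for Irf1, -0.0420 to 0.14 for Adam10 and -0.11 to 0.0343 for Ndst1.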
